A study of Mus musculus with 14 samples.

Results

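Lymphocytes that kill target cells carry granules filled with perforin, which opens the target's membrane, and with granzymes, serine proteases that enter through it and start cell death. In all, 10 genes of this programme were followed in whole spleen: the granzymes Gzma, Gzmb, Gzmk and Gzmm, the pore-forming protein Prf1, the granule membrane protein Nkg7, the chemokine Ccl5, the transcription factors Eomes and Tbx21, and the cytokine receptor chain Il2rb. They were taken from the deposited count table by gene symbol, 10 of 22116 named genes, and all 10 passed the filter on low counts. In the spleen these genes are known from natural killer (NK) cells and CD8 T cells, though not all are confined to them. Eomes and T-bet (the product of Tbx21) are related T-box factors that drive granzyme and perforin genes, and interleukin-15, read through the receptor chain encoded by Il2rb, keeps NK cells and memory CD8 T cells alive.

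RNA was measured in whole spleens of 14 wild-type female BALB/c mice, 6 to 8 weeks of age, in 4 groups that model psoriasis-like skin inflammation. The control group (3 mice, numbered 2, 4 and 5) received petrolatum on dorsal skin and ears according to the sample labels, although the series' design text speaks of untreated controls. The imiquimod-dorsal group (4 mice, numbered 2 to 5) received 5% imiquimod cream, an agonist of Toll-like receptor 7, on dorsal skin daily for 5 days. The imiquimod-ear group (4 mice, numbered 1, 3, 4 and 5) received the same 5% cream on the ears for 5 days. The IL-23-ear group (3 mice, numbered 1 to 3) received 1 µg of interleukin-23 per ear into the skin every other day, 4 injections over 7 days. The imiquimod and IL-23 groups therefore differ in agent, route and duration, and the controls were given no injection. The series calls the libraries biological replicates. Each held 28354674 to 40289411 counts over named genes. Levels are CPM, read counts divided by library size and scaled between libraries by trimmed mean of M values (TMM), and group values are mean ± SD over the mice. Changes are log2 fold changes ± SE from edgeR's quasi-likelihood test, called at a Benjamini-Hochberg adjusted p below 0.05 over the 15159 genes tested.

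The upstream sequences of 3 effector genes are shown as a description, and whether they bear on the changes was not tested. Each is the 250 bases before the GENCODE start in the reference genome GRCm39, written 5′ to 3′ on the gene's strand. The reference comes from C57BL/6, not from the BALB/c mice used. Gzma (ENSMUSG00000023132) lies on the minus strand of chromosome 13, 113230355 to 113237524, and its window is chr13:113237525-113237774. Gzmb (ENSMUSG00000015437) lies on the minus strand of chromosome 14, 56496295 to 56499717, with the window chr14:56499718-56499967. Prf1 (ENSMUSG00000037202) lies on the plus strand of chromosome 10, 61133546 to 61140461, with the window chr10:61133296-61133545. Capitals mark matches, on either strand, to the RUNX core TGTGGT or to the STAT5 pattern TTCNNNGAA.
Gzma: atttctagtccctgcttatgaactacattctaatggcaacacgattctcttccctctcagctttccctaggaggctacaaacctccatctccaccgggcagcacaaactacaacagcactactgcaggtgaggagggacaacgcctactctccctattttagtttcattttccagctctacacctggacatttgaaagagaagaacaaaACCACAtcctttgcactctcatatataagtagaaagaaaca
Gzmb: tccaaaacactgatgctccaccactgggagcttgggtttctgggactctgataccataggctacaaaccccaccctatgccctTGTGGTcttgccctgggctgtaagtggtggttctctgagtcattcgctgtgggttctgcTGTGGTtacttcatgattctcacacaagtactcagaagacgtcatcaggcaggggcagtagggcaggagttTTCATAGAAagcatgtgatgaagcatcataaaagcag
Prf1: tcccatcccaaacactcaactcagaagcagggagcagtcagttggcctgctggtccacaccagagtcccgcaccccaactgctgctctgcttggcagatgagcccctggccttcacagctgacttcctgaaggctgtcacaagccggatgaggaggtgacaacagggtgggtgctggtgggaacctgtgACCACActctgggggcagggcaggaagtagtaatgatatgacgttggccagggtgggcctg
The RUNX core was found in the windows of 5 of the 10 genes (Gzma, Gzmb, Gzmm, Prf1 and Nkg7), against 13.0% of 21770 windows. Those 21770 are windows of the same length before the starts of protein-coding genes in GRCm39. Gzmb held it at positions -167 to -162 and -108 to -103, counted back from the start. The STAT5 pattern, searched in addition to the planned T-box and RUNX letters, was found in 3 of the 10 (Gzmb, Gzmm and Nkg7), against 7.70% of all windows. In Gzmb it lies at -37 to -29 and reads TTCATAGAA. The T-box letters AGGTGTGA were found in 0 of the 10 windows and in 0.960% of all windows, and 10 windows are too few to tell these shares apart. None of the matches overlaps another. A match describes letters in these windows and says nothing of binding in these spleens.

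In control spleens the levels per kilobase of exon were led by Ccl5 (56.6 CPM per kb), Nkg7 (50.2), Gzma (44.9) and Il2rb (31.5). Prf1 stood at 11.7 CPM per kb, Gzmb at 8.48, Tbx21 at 5.90 and Eomes at 5.32. Gzmk and Gzmm were low, at 1.27 and 1.06 CPM per kb, with 8 to 93 and 10 to 102 counts per library, so their values are the least precise of the 10. Gzmk overlaps Esm1 on the opposite strand, and the libraries do not mark strand. Of the other granzyme genes, Gzmd, Gzme, Gzmf, Gzmg and Gzmn had 0 counts in all 14 libraries, which allows at most 3 counts of each per library, a floor for counting error only. Gzmc had 79 counts in all.

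The question of the first comparison is how the dorsal imiquimod model differed from control. Perforin, Gzma, Gzmm, Nkg7, Ccl5, Eomes and Il2rb fell, by 2.16-fold (Gzmm) to 4.06-fold (Il2rb), and none of the 10 rose. Gzmb, Gzmk and Tbx21 were not called, and of these Tbx21 had a positive change. Of the 10 genes, 7 were called lower against 27.6% of all genes tested, and 0 were called higher against 32.3%. At an unadjusted p below 0.05, edgeR gave 1 higher gene, DESeq2 called 1 and limma-voom 0. The median log2 fold change of the 10 was -1.47, beside -0.00067 over all genes. In bulk spleen, fewer cells of a type and less RNA per cell cannot be told apart.

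**Figure D1:**
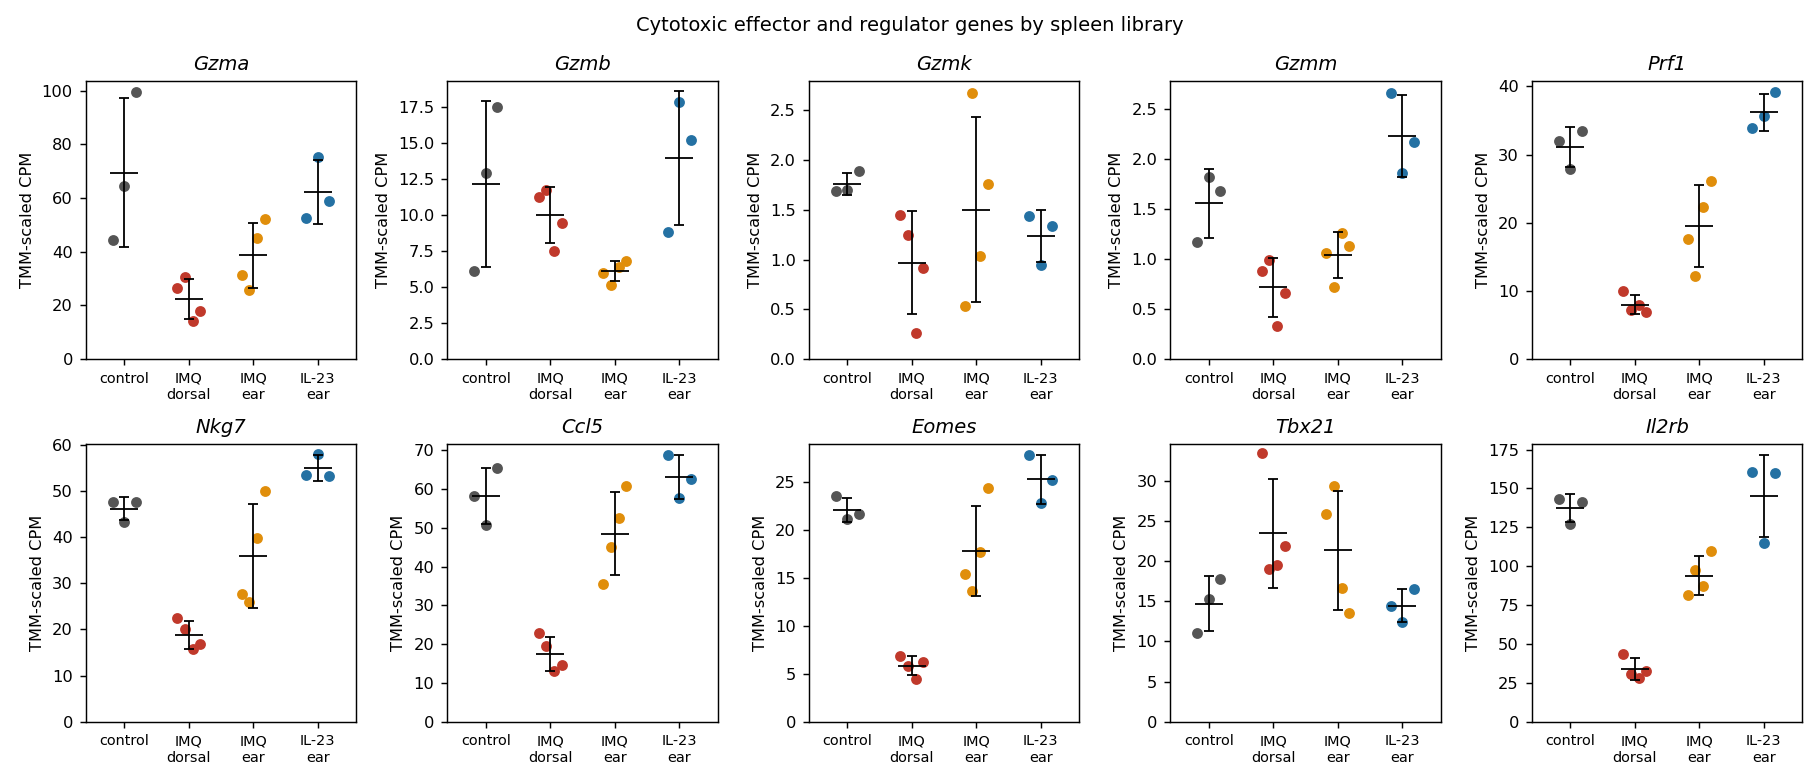
TMM-scaled CPM (vertical axes, starting at 0) of the 10 genes in each spleen library, in the control, imiquimod (IMQ) dorsal, imiquimod ear and IL-23-ear groups. Each point is 1 mouse, and the bars give the group mean and SD. In Prf1, Eomes and Il2rb all 4 imiquimod-dorsal points lie below all others, whereas in Gzmb they lie within the control range and in Tbx21 above it.

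Among the effectors, Prf1 read 32.1, 27.8 and 33.5 CPM in the control mice and 10.0, 7.14, 7.97 and 6.84 CPM in the imiquimod-dorsal mice. The ranges lay far apart, and the change was -1.96 ± 0.21 (adjusted p = 4.73e-06), or 3.89-fold lower. Gzma, a granzyme that cleaves after basic residues, read 44.5, 64.3 and 99.4 CPM in control and 26.4, 30.5, 14.1 and 18.1 CPM in imiquimod-dorsal mice. The control mice differed widely among themselves, yet all lay above every imiquimod-dorsal mouse (-1.64 ± 0.33, adjusted p = 0.000993). Gzmm fell from 1.56 ± 0.345 to 0.716 ± 0.294 CPM (-1.11 ± 0.33, adjusted p = 0.0107). Gzmk went from 1.76 ± 0.114 to 0.969 ± 0.520 CPM without passing the test (-0.85 ± 0.51, adjusted p = 0.165), although the ranges did not overlap.

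Gzmb, the granzyme that cleaves after aspartate and activates caspases, read 6.08, 12.9 and 17.5 CPM in control and 11.3, 11.8, 7.51 and 9.43 CPM in imiquimod-dorsal mice. All 4 treated mice lay inside the control range, and the change was -0.28 ± 0.31 (adjusted p = 0.443). The control mice were widely spread, and without control 2 the change became -0.66 (adjusted p = 0.0419), without control 5 it became 0.03 (adjusted p = 0.952). Scaled by total counts alone it was -0.62 (adjusted p = 0.0823), where the median of all genes was -0.33.

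Nkg7, a granule membrane protein needed for release of granule contents, read 47.5, 43.2 and 47.7 CPM in control and 22.4, 20.1, 15.7 and 16.8 CPM in imiquimod-dorsal mice. Every treated mouse lay below every control (-1.30 ± 0.19, adjusted p = 7.35e-05). Ccl5, a chemokine that attracts T cells and monocytes, fell from 58.1 ± 7.28 to 17.5 ± 4.46 CPM (-1.73 ± 0.20, adjusted p = 9.68e-06).

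The T-box pair went apart. Eomes (chromosome 9, 118307280 to 118315200, plus strand) read 23.5, 21.2 and 21.7 CPM in control and 6.90, 5.86, 4.49 and 6.20 CPM in imiquimod-dorsal mice, and fell 3.77-fold (-1.91 ± 0.18, adjusted p = 2.08e-06). Tbx21 (chromosome 11, 96988897 to 97006158, minus strand) read 11.0, 15.3 and 17.8 CPM in control and 33.5, 19.1, 19.5 and 21.9 CPM in imiquimod-dorsal mice. All 4 treated mice lay above all 3 controls, but the change of 0.68 ± 0.28 missed the threshold (adjusted p = 0.0524). It passed with DESeq2 (adjusted p = 0.0282) and when only both groups were fitted (adjusted p = 0.0475). It also passed without imiquimod-dorsal 3 or 4 or imiquimod-ear 3, 4 or 5, and its size went from 0.45 to 0.79 as each library was left out. Scaled by total counts alone it was 0.34 (adjusted p = 0.283), where the median of all genes was -0.33.

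Il2rb, the beta chain shared by the receptors for interleukin-2 and interleukin-15, read 143, 127 and 141 CPM in control and 43.7, 30.5, 27.9 and 32.9 CPM in imiquimod-dorsal mice. Its fall, 4.06-fold, was the deepest of the 10 (-2.02 ± 0.16, adjusted p = 8.82e-07). The 7 calls in this comparison held in each of the 22 alternative settings.

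**Figure D2:**
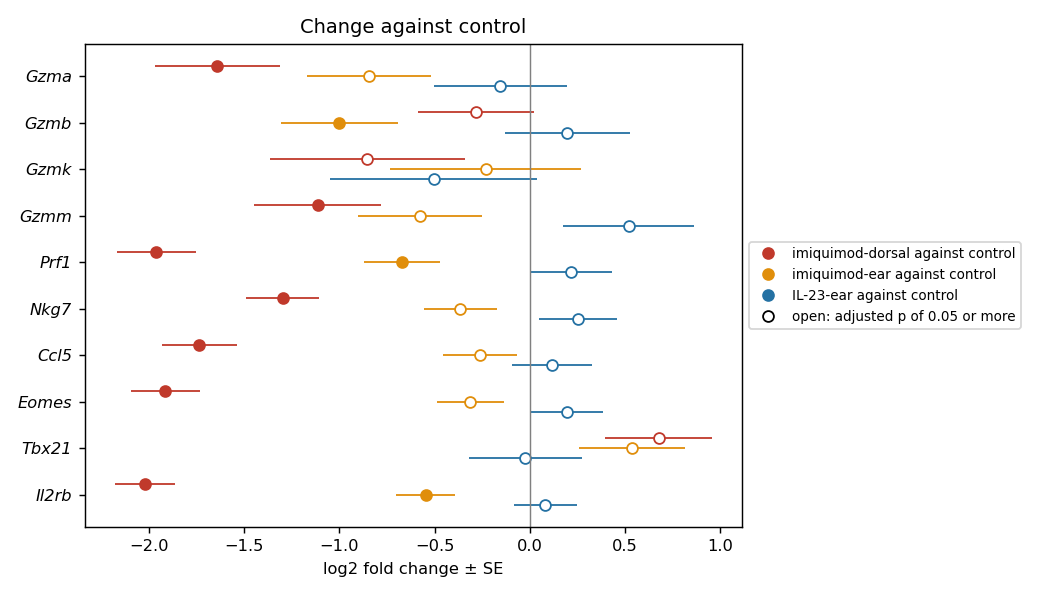
Log2 fold change against control (horizontal axis, ± SE) of each gene in the 3 treated groups, from one edgeR fit. Filled points passed the test, open points did not. The imiquimod-dorsal points of 7 genes are filled and lie between -2.02 and -1.11, and all IL-23-ear points are open and lie within 0.52 of 0.

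The ratio of the T-box factors within a library shows the difference without any scaling between libraries. Tbx21 counts over Eomes counts were 0.467, 0.725 and 0.821 in control mice and 4.86, 3.25, 4.34 and 3.53 in imiquimod-dorsal mice. In the imiquimod-ear mice numbered 1, 3, 4 and 5 the ratio was 1.67, 2.15, 0.937 and 0.556, and in IL-23-ear mice 0.516, 0.546 and 0.654. Imiquimod-dorsal mice were thus above all other mice, while 3 of the 4 imiquimod-ear mice lay above the control range and the fourth within it.

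Within the granzymes, Gzmb over Gzma was also highest in imiquimod-dorsal mice. The ratio was 0.137, 0.201 and 0.176 in control mice and 0.427, 0.386, 0.532 and 0.522 in imiquimod-dorsal mice, with no overlap. It was 0.130 to 0.200 in imiquimod-ear and 0.168 to 0.258 in IL-23-ear mice, both overlapping control. Of the summed CPM per kb of the 4 granzymes and perforin, Gzmb held 12.1% ± 2.77 in control, 27.7% ± 2.34 in imiquimod-dorsal, 11.4% ± 1.92 in imiquimod-ear and 14.4% ± 2.97 in IL-23-ear mice. Gzma remained the largest part in every library, with group means between 55.6% and 65.6%, and Prf1 held 18.6% ± 6.22 in control and 12.4% ± 3.51 in imiquimod-dorsal mice.

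**Figure D3:**
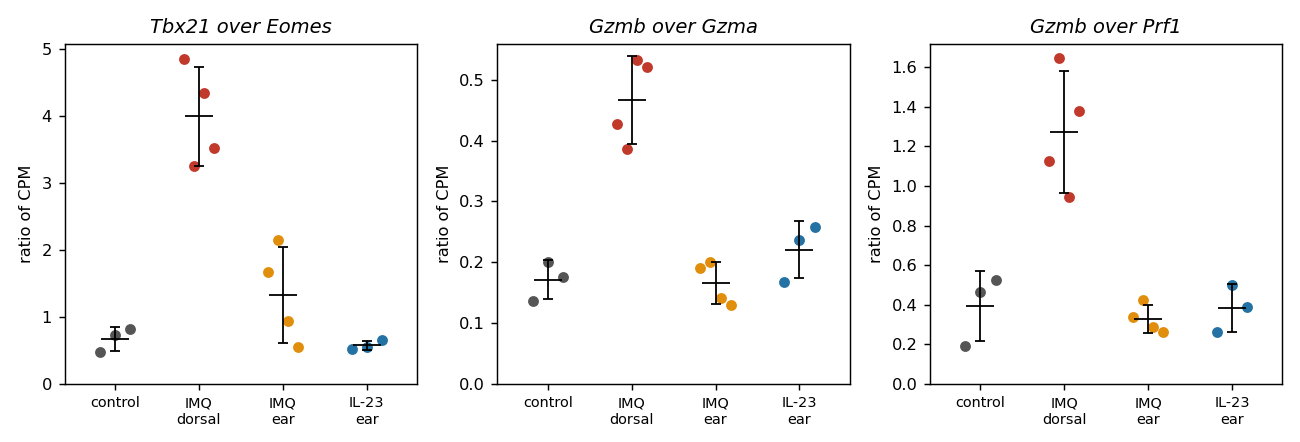
Ratio of CPM of 2 genes within each library (vertical axes), by group, with mean and SD. All 4 imiquimod-dorsal points lie above every other point for Tbx21 over Eomes, Gzmb over Gzma and Gzmb over Prf1.

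**Figure D4:**
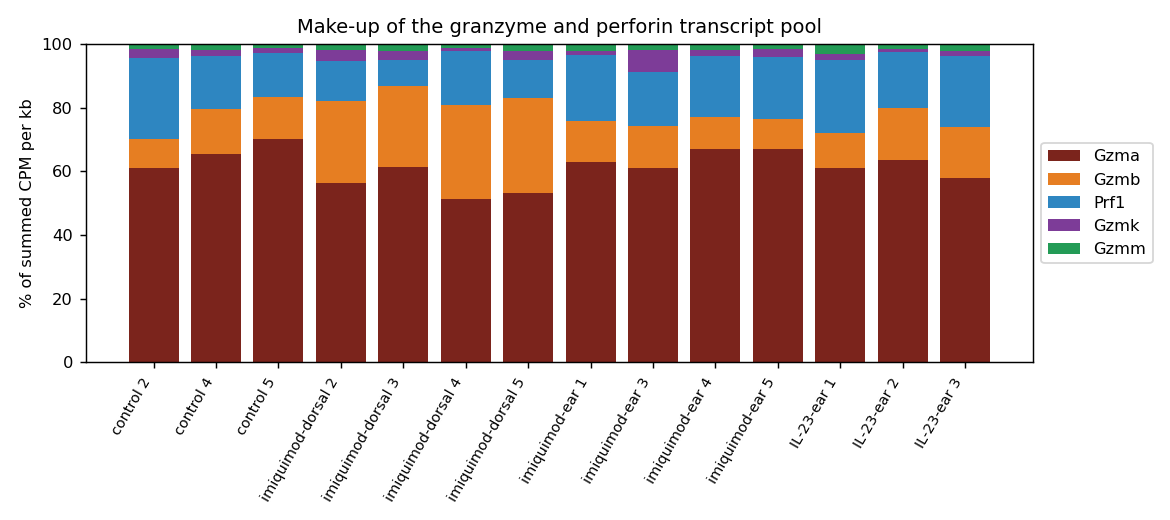
Share of each gene in the summed CPM per kb of Gzma, Gzmb, Prf1, Gzmk and Gzmm (vertical axis, percent), 1 bar per library. The Gzmb part is 25.4% to 29.9% in the imiquimod-dorsal libraries and at most 16.2% in the others.

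Markers of NK cells and of T cells in general were read beside these genes. In imiquimod-dorsal against control, 27.6% of all genes were called lower and 32.3% higher. Of the NK marker list, 8 of 12 tested genes fell and 2 rose in imiquimod-dorsal against control, among the falls the activating receptors Ncr1 (-1.78 ± 0.22, adjusted p = 1.68e-05) and Klrk1 (-2.24 ± 0.29, adjusted p = 2.69e-05). Klra4 and Klra8 had 0 counts in every library. The risers were Cd244a (0.68) and Fcer1g (0.52), both also known from myeloid cells. The summed CPM of the whole NK list was 182 to 220 in control and 150 to 225 in imiquimod-dorsal mice. Without Fcer1g, Tyrobp, Itga2 and Cd244a, a selection made after their values were seen, the sum was 61.3 to 81.4 in control, 13.9 to 24.4 in imiquimod-dorsal, 32.7 to 64.8 in imiquimod-ear and 58.1 to 72.8 in IL-23-ear mice. The trimming took out both risers, so the fall of this sum follows in part from the selection. The 16 T cell markers all fell, for instance Trac, the constant part of the T cell receptor alpha chain (-2.56 ± 0.20, adjusted p = 9.41e-07). Their sum was 1306 to 1934 CPM in control, 319 to 402 in imiquimod-dorsal, 980 to 1747 in imiquimod-ear and 1971 to 2284 in IL-23-ear mice.

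Set against the trimmed NK sum, the imiquimod-dorsal level of Prf1 was 0.946 times the control mean, Eomes 0.958, Il2rb 0.892, Ccl5 1.07 and Gzma 1.17, all with overlapping ranges. Tbx21 was at 5.87 times, Gzmb at 3.07 times and Nkg7 at 1.47 times the control mean, with ranges entirely above control. Against the T cell sum the same 3 genes stood above control: Tbx21 at 6.95 times, Gzmb at 3.52 times and Nkg7 at 1.84 times. The other 7 genes overlapped control on both scales, which with 3 and 4 mice does not show that they were unchanged. Gzmk and Gzmm, with few counts, stood at 1.85 and 1.60 times the control mean against the trimmed NK sum. Against the T cell sum, the means of all 7 lay above control, from 1.11 times (Il2rb) to 2.43 times (Gzmk), with Gzmm at 2.03 times. Against the whole NK list, Tbx21 remained above control (1.74 times), while Gzmb overlapped it (0.923 times). The other 8 were below it, among them Prf1 (0.282 times) and Nkg7 (0.445 times). Apart from Tbx21, the place of the genes beside control thus depended on the NK list used. These ratios are descriptions, and the part of NK and T cell markers in the members' changes was not tested. Which cells held the Tbx21 RNA was not tested either.

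**Figure D5:**
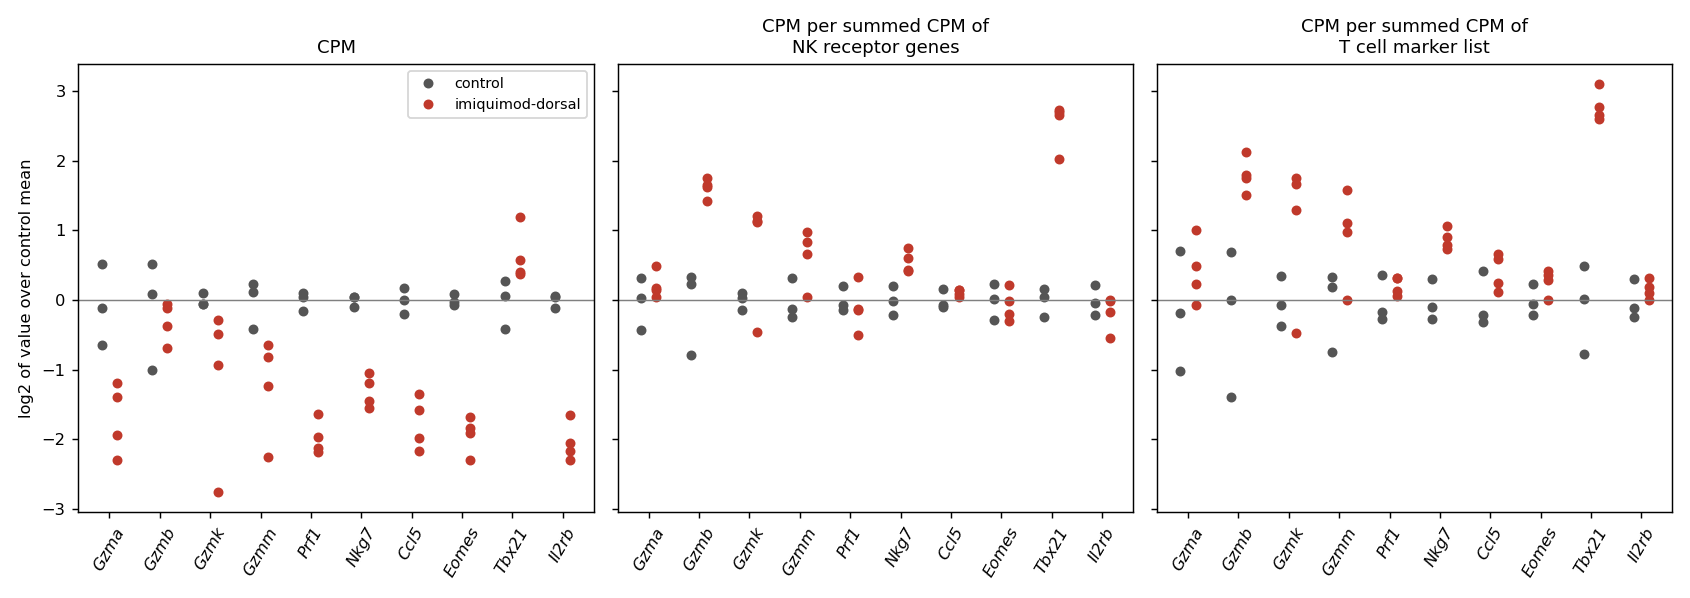
Log2 of each value over the control mean (vertical axis) for control and imiquimod-dorsal libraries, as CPM (left), per summed CPM of the trimmed NK receptor genes (middle) and per summed CPM of the T cell list (right). In the middle and right panels the ranges of 7 genes overlap control, and those of Gzmb, Nkg7 and Tbx21 lie above it. Overlapping genes can still differ in mean, and the means of Gzmk and Gzmm are above control in both panels. The trimming was chosen after the values were seen. Against the whole NK list, not drawn here, Nkg7 lies below control (0.445 times its mean), Gzmb overlaps it (0.923 times) and Tbx21 lies above it.

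Further genes were read from fixed lists, chosen with earlier results of these data known. The counts of the lists stand beside the 27.6% of all genes lower and 32.3% higher in this comparison. Of 10 tested other killing molecules, 7 fell and 0 rose in imiquimod-dorsal mice, with unadjusted, DESeq2 and limma-voom counts of risers also 0. Those that fell include the granule cathepsin Ctsw (-2.19), the death ligand Tnfsf10 (-2.02) and the granzyme B inhibitor Serpinb9 (-0.90). Of 16 granule release genes, 6 fell, among them the adaptor Sh2d1a (-2.15) and the receptor Cd226 (-1.55), and 4 rose, among them the fusion proteins Vamp8 (0.86) and Stx11 (0.69); these counts are near those shares. Of 20 transcription factors 12 fell, with Tcf7 (-2.57), Gata3 (-2.54) and Stat4 (-1.58) the clearest by adjusted p, and Zeb2 (0.69) and Nfil3 (0.86) rose. The T cell list had a median of -2.46 in the same comparison, and the part of T cells in the falls of these factors was not tested.

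Of 20 genes of the IL-2, IL-15 and IL-12 receptor pathway, 16 fell. Among them were the alpha chain Il2ra (-1.37), the common gamma chain Il2rg (-0.84) and Il18r1 (-2.54). Cish, a STAT5 target that damps cytokine signals, rose (0.70 ± 0.25, adjusted p = 0.0276). Of 10 chemokine and receptor genes, Cxcr6 (-1.68), Xcl1 (-1.76) and Cxcr3 (-0.89) were among 5 that fell, and Ccl3 (1.23) and S1pr5 (0.84) rose. The list medians were -1.02 for killing molecules, -0.17 for granule release, -0.65 for transcription factors, -0.74 for the receptor pathway and -0.42 for chemokines.

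Lists for other spleen cells were read beside the same shares in imiquimod-dorsal against control, 27.6% of all genes lower and 32.3% higher. All 8 neutrophil and all 8 erythroid markers rose, with list medians of 3.82 and 3.50. The neutrophil sum was 74.0 to 98.6 CPM in control and 785 to 1370 CPM in imiquimod-dorsal mice, and the erythroid sum 7876 to 24988 and 54405 to 90752 CPM. Of 8 plasmacytoid dendritic cell markers 5 fell and 1 rose; of 9 basophil and mast cell markers 3 rose, Mcpt8 by 2.86, and 1 fell. Of 7 platelet markers 1 rose, of 8 macrophage markers 1 rose and 1 fell (Siglec1, -1.68), and of 9 B and plasma cell markers 1 fell. The counts of the basophil and mast cell, platelet, macrophage, and B and plasma cell lists are near or below those shares. Gzmb can be made by basophils and plasmacytoid dendritic cells as well as by killer lymphocytes, and the part of these cells in its level was not tested.

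The next comparison asks how the ear imiquimod model differed from control. The same cream on the ears went with smaller differences: 3 of the 10 genes fell, against 6.98% of all genes called lower, and 0 rose, against 14.3% called higher. For risers the unadjusted edgeR count, DESeq2 and limma-voom also gave 0. The median of the 10 was -0.46, beside 0.02 over all genes. Prf1, Il2rb and Gzmb were the 3 that fell.

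Prf1 read 17.6, 12.2, 22.2 and 26.1 CPM in imiquimod-ear mice 1, 3, 4 and 5, each below every control (-0.67 ± 0.20, adjusted p = 0.0304). Il2rb read 81.3, 97.6, 87.0 and 110 CPM, also below every control (-0.55 ± 0.15, adjusted p = 0.0248). Gzmb read 5.97, 5.17, 6.36 and 6.82 CPM, the lowest group mean of the series, reaching control 2 and no other control (-1.0 ± 0.31, adjusted p = 0.0347). Each of these calls was lost when 1 of several libraries was left out: Prf1 without control 2, 4 or 5 or imiquimod-ear 1, Il2rb without control 2 or 4 or imiquimod-ear 1 or 4, and Gzmb without control 4 or 5 or imiquimod-ear 1, 3 or 4. The adjusted p-values then ran from 0.0525 to 0.136. Gzmb was also lost with limma-voom (adjusted p = 0.0977), and Gzmb and Prf1 when only both groups were fitted (adjusted p = 0.0748 and 0.0951).

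Gzma stood at 38.6 ± 12.2 CPM against 69.4 ± 27.8 CPM in control without passing (-0.84 ± 0.32, adjusted p = 0.0845), though DESeq2 called it (adjusted p = 0.0213). Nkg7 (-0.36), Eomes (-0.31), Ccl5 (-0.26), Gzmm (-0.58) and Gzmk (-0.23) did not pass. The imiquimod-ear mice were unlike one another: Eomes read 15.4, 13.6, 17.7 and 24.4 CPM and Nkg7 27.7, 25.9, 39.8 and 49.9 CPM in mice 1, 3, 4 and 5. Mouse 5 was above the highest control in both genes, and the other 3 were below every control. Without it, the change was -0.54 in Eomes (adjusted p = 0.0107), -0.61 in Nkg7 (adjusted p = 0.00987) and -1.07 in Gzma (adjusted p = 0.0394), all past the threshold. Tbx21 ran the other way within the group, at 25.8, 29.3, 16.6 and 13.6 CPM, highest in the mice that were lowest in Eomes (0.54 ± 0.28, adjusted p = 0.189).

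In the lists, to be read beside 6.98% of all genes lower and 14.3% higher, imiquimod-ear mice showed Tnfsf10 (-0.95) and Ctsw (-0.63) as the 2 of 10 other killing molecules that fell, and Lyst (-0.60) as the 1 of 16 granule release genes. Of 20 transcription factors, Prdm1 (1.35) and Nfil3 (1.10) rose and Ets1 (-0.46) and Bach2 (-0.38) fell. Jak1 (-0.31), Il15ra (-0.58) and Il18r1 (-0.77) were the 3 of 20 receptor pathway genes that fell. The chemokine receptor Cxcr3 rose (1.08 ± 0.20, adjusted p = 0.00446), while Cx3cr1 (-0.97) and Cxcr6 (-0.89) fell, out of 10. The granule release and transcription factor counts are near the shares of all genes.

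The marker lists were read beside the same shares, 6.98% of all genes lower and 14.3% higher. Of the NK list 1 of 12 fell (Cd244a, -0.55), and of the T list 1 of 16 (Cd8a, the CD8 alpha chain, -0.75 ± 0.24, adjusted p = 0.0449). Plasmacytoid dendritic cell markers fell in 2 of 8 (Siglech, -0.81, and Bst2, -1.08), and 1 of 8 macrophage markers fell (Siglec1, -1.09). Neutrophil markers rose in 4 of 8, basophil and mast cell markers in 1 of 9, and B and plasma cell markers in 4 of 9 with 1 falling. Mzb1, a chaperone of antibody-secreting cells, rose by 1.84. The NK, T cell, macrophage, and basophil and mast cell counts rest on 1 gene each and are near those shares. Platelet and erythroid markers were called in 0 of 7 and 0 of 8; at an unadjusted p below 0.05 edgeR gave 4 and 1, DESeq2 called 3 and 0, and limma-voom 1 and 0.

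For IL-23 injected into the ear, none of the 10 genes was called against control. Calls were rare in this comparison, at 0.0462% of all genes higher and 0.00660% lower. The 10 also gave 0 in each direction at an unadjusted p below 0.05, with DESeq2 and with limma-voom. Log2 fold changes ran from -0.50 (Gzmk) to 0.52 (Gzmm), with a median of 0.16. Prf1 read 33.9, 35.6 and 39.2 CPM, above all 3 controls by a small margin (0.22 ± 0.21, adjusted p = 0.838). Nkg7 at 53.4, 58.1 and 53.2 CPM was likewise above all controls (0.25 ± 0.20, adjusted p = 0.795). Gzmm, at 1.85 to 2.66 CPM, was above all controls too (0.52 ± 0.34, adjusted p = 0.737). Gzmk, at 0.941 to 1.44 CPM, was below all of them (-0.50 ± 0.54, adjusted p = 0.855). Both had few counts. Gzma (-0.16 ± 0.35), Gzmb (0.20 ± 0.33), Ccl5 (0.12 ± 0.21), Eomes (0.19 ± 0.19), Tbx21 (-0.02 ± 0.30) and Il2rb (0.08 ± 0.17) had ranges that overlapped control. Of the 161 tested genes on the 14 lists, edgeR called 0, with 14 at an unadjusted p below 0.05, and DESeq2 and limma-voom also called 0.

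The imiquimod sites were then compared with each other. In imiquimod-ear against imiquimod-dorsal mice, 5 of the 10 genes were higher, against 23.3% of all genes. Eomes was higher by 1.60 ± 0.17 (adjusted p = 1.01e-05), Il2rb by 1.48 ± 0.15, Ccl5 by 1.47 ± 0.19, Prf1 by 1.29 ± 0.19 and Nkg7 by 0.93 ± 0.18. In these 5 every imiquimod-ear mouse lay above every imiquimod-dorsal mouse. None was called lower, against 24.5% of all genes; 1 was at an unadjusted p below 0.05, DESeq2 called 1 and limma-voom 0. That gene is Gzmb, which was below the imiquimod-dorsal range in all 4 imiquimod-ear mice (-0.72 ± 0.29, adjusted p = 0.0557; 0.0268 with DESeq2). It was also called when only both groups were fitted (adjusted p = 0.00834) and without control 2 or 5, imiquimod-dorsal 4 or IL-23-ear 1. Gzma, at 0.80 ± 0.31, missed the threshold (adjusted p = 0.0502) and was called in 9 of the 22 alternatives. These were total counts only (adjusted p = 0.0120), DESeq2 (0.0121), only both groups (0.0397), haemoglobin and immunoglobulin genes removed (0.0491), and the omission of control 2 or 5, imiquimod-dorsal 3 or imiquimod-ear 1 or 3. Gzmm (0.54 ± 0.32), Gzmk (0.62 ± 0.48) and Tbx21 (-0.14 ± 0.25) did not pass. The median of the 10 was 0.86.

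Against imiquimod-ear mice, IL-23-ear mice had 5 of the 10 genes higher, where 7.06% of all genes were. They were Gzmb (1.20 ± 0.31, adjusted p = 0.0196), Gzmm (1.09 ± 0.32, adjusted p = 0.0341), Prf1 (0.89 ± 0.20, adjusted p = 0.0104), Il2rb (0.63 ± 0.15, adjusted p = 0.0162) and Nkg7 (0.62 ± 0.19, adjusted p = 0.0415). Gzmb read 8.79, 17.9 and 15.2 CPM in IL-23-ear mice, all above the imiquimod-ear mice. Prf1 stayed called whichever library was left out, whereas Nkg7 was lost in 11 of the 14 omissions and when only both groups were fitted (adjusted p = 0.111), Gzmb without imiquimod-ear 1 or 3 or IL-23-ear 2 or 3, Gzmm without imiquimod-ear 1 or 3 or IL-23-ear 1 or 3, and Il2rb without IL-23-ear 1 or 3. None of the 10 was lower, against 10.2% of all genes, and the unadjusted edgeR count, DESeq2 and limma-voom gave 0 as well. Eomes missed the threshold (0.51 ± 0.18, adjusted p = 0.0611) and passed with DESeq2 (adjusted p = 0.0290), with limma-voom (adjusted p = 0.0344) and without imiquimod-ear 5 (0.72, adjusted p = 0.00241). Gzma (0.69 ± 0.33, adjusted p = 0.162), Ccl5 (0.38 ± 0.19, adjusted p = 0.192), Tbx21 (-0.56 ± 0.28, adjusted p = 0.181) and Gzmk (-0.27 ± 0.51, adjusted p = 0.747) did not pass. The median of the 10 was 0.62. T cell markers were higher in 14 of 16 and NK markers in 0 of 12, of which 4 had an unadjusted p below 0.05, DESeq2 called 1 and limma-voom 0.

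IL-23-ear against imiquimod-dorsal mice gave the largest median difference of the 6 comparisons. Of the 10 genes 7 were higher, against 27.1% of all genes: Prf1 by 2.18 ± 0.21, Eomes by 2.11 ± 0.18, Il2rb by 2.10 ± 0.16, Ccl5 by 1.85 ± 0.20, Gzmm by 1.63 ± 0.33, Nkg7 by 1.55 ± 0.19 and Gzma by 1.48 ± 0.33. Tbx21 was the 1 gene called lower, against 30.0% of all genes (-0.70 ± 0.28, adjusted p = 0.0474), at 14.4, 12.4 and 16.5 CPM. That call was lost when any of 9 libraries was left out and in 5 other settings, with adjusted p-values up to 0.189. Gzmb (0.48 ± 0.30, adjusted p = 0.195) and Gzmk (0.35 ± 0.52) did not pass. The median of the 10 was 1.59. These 3 comparisons share mice with those against control and with one another.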

How the data were processed

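Each library held raw read counts per gene as deposited by the authors, whole numbers not normalized. The submitters' processing notes name, with no roles, the build GRCm39 and the tools DESeq2 1.38.3, featureCounts 2.0.3 (Subread), StringTie 2.2.1, HISAT2 2.2.1 and fastp 0.23.2. The gene annotation is not given in the sources used here. Loci without a name (624 of 22740 entries, 0.484% to 0.674% of counts) were left out. Counts were fitted with edgeR 4.0.16 in R 4.3.3: filterByExpr with a minimum count of 10, TMM, robust quasi-likelihood F tests over all 14 libraries (10 residual degrees of freedom, biological coefficient of variation 18.7%), adjusted by Benjamini-Hochberg at 0.05. Non-overlap means that all mice of one group lay beyond all of the other. Levels per kilobase use the exon length of GENCODE vM39 genes.

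The 10 genes and the lists were chosen with earlier results of these data known. By rule, all 10 genes are named in each comparison, and, in the comparisons with control, up to 3 called list genes per direction, taken from those with the smallest adjusted p. The lists hold 169 genes, of which 161 were tested; one granule release gene was not used here. Replicate libraries differed by more than sampling noise in all 18 pairs within groups (chi-square per degree of freedom 24.1 to 141.4). On simulated counts for imiquimod-dorsal against control (15009 genes), 93% of log2 changes of 2 and 69.7% of changes of 1 were recovered, and 6 unchanged genes were called. Only 100 genes were given a change of 2 and 99 a change of 1, against 9071 called in the data. The recovery need not carry over to the data. The 22 alternatives were other scalings, no filter, DESeq2 1.42.0, limma-voom 3.58.1, only the 2 groups compared, a replicate block and each library left out. One gene near Gzmm by expression is not reported here.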

Additional observations from a re-analysis of the deposited data

How the results depend on the processing

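Over the 10 genes, 6 comparisons and all alternatives, 1228 single-gene values kept their direction and side of the threshold, or were not called under either setting, 59 lost a call, 31 gained one and none reversed. The cause was not tested for any of them. Genes called higher in imiquimod-dorsal against control went from 0 to 1 with DESeq2 and with only the 2 groups fitted, and from 0 to 1 over the libraries left out in turn. Genes called lower in imiquimod-ear against control went from 3 to 1 with only the 2 groups fitted, and from 0 to 6 with a library left out, where the count over all genes ran from 1066 to 4977. Genes called lower in imiquimod-ear against imiquimod-dorsal went from 0 to 1 with DESeq2 and with only the 2 groups, and from 0 to 1 with a library left out. Genes called higher in IL-23-ear against imiquimod-ear ran from 1 to 6 with a library left out. The 1 gene called lower in IL-23-ear against imiquimod-dorsal became 0 with RLE size factors, total counts only, haemoglobin and immunoglobulin genes removed, no filter and limma-voom, and was 0 to 1 with a library left out. With scaling by total counts alone the median of all genes was -0.33 in imiquimod-dorsal against control, 0.26 in imiquimod-ear against imiquimod-dorsal and 0.28 in IL-23-ear against imiquimod-dorsal.

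The replicate numbers did not pair the mice: of 13 same-numbered pairs, 1 had deviations correlated above 0.1 (r from -0.24 to 0.18). With the replicate block, genes called lower in imiquimod-ear against control were 0 instead of 3, and genes called higher in IL-23-ear against imiquimod-ear 1 instead of 5; in imiquimod-dorsal against control 7 were called lower, as without it. Depth limits Gzmk and Gzmm most, with 8 and 10 counts in their lowest libraries.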

Other observations

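Among 14765 genes with a symbol, those whose log2 CPM, centred on the control mean, differed least from each of the 10 over the 14 libraries were listed by root mean square difference. Nkg7 had the closest neighbours, Dok2 (0.12), Gas6 (0.16) and Tbxa2r (0.17). For Gzma they were the NK receptor Ncr1 (0.27), Hcar1 (0.28) and Bmp4 (0.32), and for Gzmb the interferon-inducible GTPase Irgm2 (0.29), Znfx1 (0.34) and the DNA sensor Cgas (0.36). Prf1 lay nearest Epsti1 (0.22), Arl4c (0.23) and Entrep3 (0.23). Eomes lay nearest the T cell receptor segment Trbj1-3 (0.16), Abtb2 (0.18) and Dgka (0.19), and Ccl5 nearest Abtb2 (0.20), Prkch (0.23) and Trbj1-3 (0.23). Tbx21 had Socs3, an inhibitor of cytokine signals (0.20), Lgals1 (0.22) and Atp2a2 (0.23), and Il2rb had Cacnb3 (0.21), Adgrg5 (0.24) and Art2a (0.24). Genes near Gzmm included Tceal3 (0.26) and the IL-18 receptor chain Il18rap (0.32). Gzmk, with few counts, had the most distant neighbours, Mrap (0.45), Cd200r3 (0.50) and Hapln3 (0.51). These are distances between genes in 14 libraries that share groups, given as a description.

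In the 20 sets of 4 mice tested (10 genes in each imiquimod group), 0 held a mouse whose gap to the others passed Dixon's 95% critical value.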
